A study of Mus musculus with 6 samples.

Results

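The DNA methylation and Tet genes were examined in RNA-seq data from mouse embryonic stem (mES) cells. The 8 genes were chosen by name, for what their proteins do, out of 16668 genes listed in every library. They were *Dnmt3a*, *Dnmt3b* and *Dnmt3l*, *Dnmt1* and *Uhrf1*, *Tet1* and *Tet2*, and *Tdg*. All 8 were above the filter on low values, a mean of 0.5 RPKM (reads scaled to the exon length of the gene and to all mapped reads of the library), which left 11538 genes for the tests.

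The cells were E14, a wild-type line of strain 129/Ola, at passage 3 to 5. They were kept without feeder cells in N2B27 medium with LIF at 1000 U per ml and 2i, which is the MEK inhibitor PD0325901 at 1 µM with the GSK3 inhibitor CHIR99021 at 3 µM. Control siRNA, or siRNA against the H2A ubiquitin ligases Ring1B (gene *Rnf2*) or Dzip3, was transfected, which lowers a transcript for a limited time and does not delete the gene. The labels give 3 groups with 2 libraries each, control, Ring1B-KD and Dzip3-KD. The study calls the libraries of a group biological duplicates, and p-values of the comparisons by label measure the spread between such duplicates. All groups shared the 2i medium, and no library from cells in serum was analysed here.

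The name of each deposited RPKM list also holds a number and a condition word, and for 4 of the 6 libraries that word was not the one in the label. The library labelled control 1 carried the word control, and the library labelled control 2 carried the word Ring1BKD. Ring1B-KD 1 and Ring1B-KD 2 carried the words Dzip3KD and control. Dzip3-KD 1 and Dzip3-KD 2 carried the words Ring1BKD and Dzip3KD. The first set of 3 numbers held control 1, control 2 and Ring1B-KD 1, and the second set held Ring1B-KD 2, Dzip3-KD 1 and Dzip3-KD 2, so that each word occurred once in each set. The labels defined the groups. Comparisons by word within the sets are given beside them, as another reading of the names and not as a group assignment, and which naming describes the cells was not tested. In the fit by word and set, p-values measure what remains after both, and not a spread between libraries labelled as duplicates.

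Dnmt3a and Dnmt3b place methyl groups on cytosines of unmethylated DNA, and Dnmt3l is their partner without catalytic activity of its own. Dnmt1 copies methylation to the new strand after replication, guided by Uhrf1, which binds DNA methylated on a single strand. Tet1 and Tet2 oxidise methylcytosine, and Tdg removes the more oxidised bases so that repair can restore an unmethylated cytosine. The DNA of mES cells in 2i is known to be poor in methylation, with less RNA of *Dnmt3b* and *Dnmt3l* and more of their repressor *Prdm14* than in serum, while the RNA of *Dnmt1*, *Uhrf1*, *Tet1* and *Tet2* stays abundant.

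The promoters of *Dnmt3b* and *Uhrf1*, the genes called between the sets of libraries, are shown with the target of the reaction, CpG, in capitals (searched as CG, which reads the same on both strands). Each window is the 250 bases before an annotated start in RefSeq on GRCm38.p6, a later build than mm9, so these coordinates do not compare with the gene positions in mm9. The first is chr2:153649199-153649448 and the other, for the first-listed start of *Uhrf1*, is chr17:56303087-56303336, both on the plus strand.
Dnmt3b: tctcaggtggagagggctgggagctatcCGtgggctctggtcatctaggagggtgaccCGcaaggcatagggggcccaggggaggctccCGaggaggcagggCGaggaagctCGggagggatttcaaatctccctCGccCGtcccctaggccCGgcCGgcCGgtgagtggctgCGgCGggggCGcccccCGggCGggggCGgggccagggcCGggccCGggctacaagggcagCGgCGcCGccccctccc
Uhrf1: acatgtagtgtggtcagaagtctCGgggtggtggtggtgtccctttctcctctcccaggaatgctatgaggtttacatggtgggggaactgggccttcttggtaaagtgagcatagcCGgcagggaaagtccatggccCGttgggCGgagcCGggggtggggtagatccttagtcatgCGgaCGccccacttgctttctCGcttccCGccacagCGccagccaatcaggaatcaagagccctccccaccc
The *Dnmt3b* window held 21 CpG, a number reached by 16.3% of 32851 promoter windows of this length, whose median was 6. The *Uhrf1* window held 10, reached by 37.8%. A window before another annotated start of *Uhrf1* (chr17:56304063-56304312), not printed, held 30, reached by 5.9%. All 8 genes had at least 1 window, 15 in all, and these ranged from 2 CpG for a start of *Dnmt1* to 51 for *Tet2*. The 3 windows of *Dnmt3l* held 3 to 5. Methylation itself was not measured in these libraries.

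Library depth, recovered from the RPKM values, was 3015349 to 3583612 mapped reads, and 3 reads on a transcript of 2 kb stood for 0.419 to 0.498 RPKM. The naive ES cell markers summed to 1431 to 1851 RPKM per library, and fibroblast markers to 1.18 to 3.10 RPKM, with *Col3a1*, *Dcn* and *Postn* of that list not among the listed genes. The siRNA targets were examined as a check of the names. *Rnf2* was at 30.6 and 20.4 RPKM in control 1 and 2 and at 26.8 and 28.8 RPKM in Ring1B-KD 1 and 2. By word it was lower in the Ring1BKD library than in the control library of both sets, where 40.6% of all genes were. The log2 difference was -0.55 (SE 0.13, limma adjusted p 0.232). *Dzip3* was at 2.24 and 2.68 RPKM in control 1 and 2 and 1.70 and 1.31 RPKM in Dzip3-KD 1 and 2. It was also below both controls under the label Ring1B-KD, at 1.18 and 1.89 RPKM in Ring1B-KD 1 and 2. Its log2 differences from control were -0.47 for Dzip3-KD and -0.46 for Ring1B-KD (limma adjusted p 0.458 and 0.902). The lower level was thus not particular to the label Dzip3-KD. By word *Dzip3* was lower in the Dzip3KD library of both sets, where 29.5% of all genes were. The log2 difference was -0.45 (SE 0.21, limma adjusted p 0.754). None of these differences passed the threshold of 0.05. Since *Rnf2* was no lower under the label Ring1B-KD, a name such as Ring1B-KD 1 means here the library so labelled, without a claim that the target was reduced in it.

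To set the 8 genes in order, their mean levels over the 6 libraries were compared in RPKM, which is per exon length. The order from the highest was *Uhrf1*, *Tet1*, *Tet2*, *Dnmt1*, *Dnmt3l*, *Dnmt3b*, *Dnmt3a* and *Tdg*. Both *Tet* genes and the maintenance pair thus stood above all 3 genes of de novo methylation. *Uhrf1* averaged 56.8 ± 12.2 RPKM (SD, n = 6) and ranked above 98.2% of the listed genes in the median library. *Tet1* averaged 27.6 ± 2.94 RPKM (SD, n = 6) and *Tet2* 23.0 ± 3.58 RPKM (SD, n = 6), at median percentiles of 94.7 and 93.4. Their ranges overlapped, but *Tet1* was higher than *Tet2* in 6 of 6 libraries, by 1.07 to 1.52 times. *Dnmt1* averaged 13.6 ± 2.26 RPKM (SD, n = 6), at percentile 86.6, and its range met neither neighbour in this order. It did overlap with that of *Dnmt3b*, whose highest value, 11.1 RPKM in control 2, was above the lowest of *Dnmt1*, 10.6 RPKM in Dzip3-KD 1.

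*Dnmt3l* and *Dnmt3b* were next, at 7.05 ± 2.10 and 6.78 ± 3.30 RPKM (SD, n = 6), and their median percentiles were 74.7 and 72.8. Their order is not settled by these values, because the ranges overlapped and *Dnmt3l* was the higher in only 4 of 6 libraries. *Dnmt3a* averaged 1.67 ± 0.221 RPKM (SD, n = 6) and *Tdg* 1.27 ± 0.784 RPKM (SD, n = 6), at percentiles 46.0 and 41.8, again with overlapping ranges. Both lay below the middle of the listed genes. *Dnmt3b* exceeded *Dnmt3a* in every library, by 1.73 to 6.45 times.

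**Figure D1:**
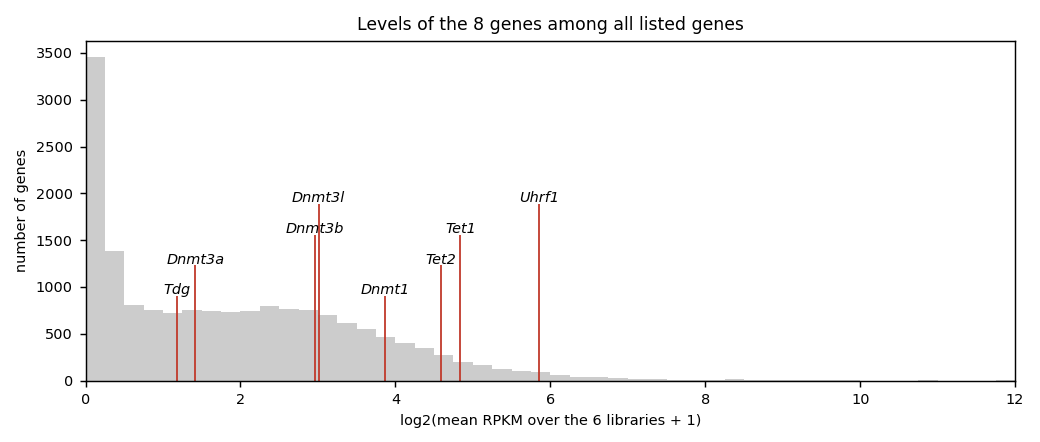
Histogram of the mean level of all 16668 listed genes on the log2(mean RPKM + 1) axis, with a red line at each of the 8 genes; line heights only separate the names. *Uhrf1* lies farthest right and *Tdg* and *Dnmt3a* lie farthest left, while *Dnmt3l* and *Dnmt3b* nearly coincide.

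The nearest relatives of these genes were lower. *Tet3*, the family member that acts in the zygote, was at 0.716 to 1.18 RPKM, and *Tet1* exceeded it by 22.3 to 43.0 times. *Uhrf2*, the paralogue of *Uhrf1*, was at 3.77 to 5.92 RPKM, and *Uhrf1* exceeded it by 7.61 to 19.1 times. *Prdm14* was at 8.19 to 10.7 RPKM in all 6 libraries, with no called difference in any comparison. *Dppa3*, whose protein keeps Uhrf1 away from chromatin, ranged more widely, from 1.22 to 4.63 RPKM.

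The values of *Tdg* and *Uhrf1* carry a limit from the counting of unique reads. Copies in the mm9 genome with at least 95% identity over at least 100 bp were sought for the longest transcript of each gene. For *Tdg*, 5 such alignments outside the gene covered 86.4% of the transcript, the longest being 3026 bp on chromosome 15 (82346686 to 82349711) at 98.6% identity. For *Uhrf1*, 1 alignment on chromosome X (118447609 to 118450185) covered 71.8% of the transcript at 97.8% identity. The other 6 genes had 0 such alignments. If only unique reads were counted, as the study describes, reads of *Tdg* and *Uhrf1* that fit a copy equally well would have been dropped. Their RPKM may then understate their levels. No whole reads were recovered for *Tdg*, and its value in Dzip3-KD 1 stood for 0.75 reads on its annotated exon length. How the reads of *Tdg* were counted was not tested.

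Among the genes with recovered reads, *Dnmt3b* and *Dnmt3l* varied most between libraries. *Dnmt3b* (mm9 chromosome 2, 153475186 to 153513466, plus strand) was at 8.97 and 11.1 RPKM in control 1 and 2 and 8.84 RPKM in Ring1B-KD 1. It was at 3.43 RPKM in Ring1B-KD 2, and at 3.25 and 5.09 RPKM in Dzip3-KD 1 and 2. Read numbers here and below are estimates, because the exon lengths fitted to recover them were not annotated lengths for any member. The *Dnmt3b* values rested on an estimated 117, 165 and 129 reads in the first set of libraries and on 49, 46 and 79 reads in the second. All 3 libraries of the first set were thus above all 3 of the second, and the libraries labelled Ring1B-KD fell on either side.

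*Dnmt3l* (chromosome 10, 77504692 to 77526367, plus strand) was at 10.1 and 8.63 RPKM in control 1 and 2 and at 7.55 and 4.42 RPKM in Ring1B-KD 1 and 2. It was at 6.08 and 5.54 RPKM in Dzip3-KD 1 and 2. Again no library of the first set overlapped with the second, on 68 to 81 reads against 39 to 53. *Dnmt3a* (chromosome 12, 3806007 to 3914443, plus strand) kept within 1.37 and 1.98 RPKM, on 46 to 65 reads. Its lowest and highest values were those of the libraries labelled Ring1B-KD 1 and 2, so the range of a single label spanned the others.

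*Uhrf1* (chromosome 17, 56442744 to 56462909, plus strand) was at 67.1 and 62.9 RPKM in control 1 and 2 and at 71.9 and 51.1 RPKM in Ring1B-KD 1 and 2. It was at 42.5 and 45.0 RPKM in Dzip3-KD 1 and 2. The first set again lay above the second, on 739 to 886 reads against 507 to 617. *Dnmt1* (chromosome 9, 20711650 to 20757317, minus strand) was at 16.9, 13.1 and 15.4 RPKM in the first set and 13.7, 10.6 and 12.1 RPKM in the second. Its sets overlapped, since control 2 was below Ring1B-KD 2, while Dzip3-KD 1 and 2 were each below both controls.

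*Tet1* (chromosome 10, 62267318 to 62361866, minus strand) was the steadiest of the 8 genes, with a highest value 1.36 times the lowest. It was at 28.1 and 26.3 RPKM in control 1 and 2, 30.1 and 27.7 RPKM in Ring1B-KD 1 and 2, and 22.7 and 30.8 RPKM in Dzip3-KD 1 and 2. It was also read most deeply, with 1042 to 1554 reads. *Tet2* (chromosome 3, 133126643 to 133207354, minus strand) was at 26.2 and 19.0 RPKM, 27.7 and 24.3 RPKM, and 20.5 and 20.2 RPKM in the same order, and the control libraries spanned both that were labelled Dzip3-KD. *Tdg* (chromosome 10, 82092573 to 82113544, plus strand) was at 1.10 and 1.95 RPKM, 1.35 and 2.24 RPKM, and 0.0428 and 0.921 RPKM. Its lowest value, in Dzip3-KD 1, was below the level of 3 reads.

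**Figure D2:**
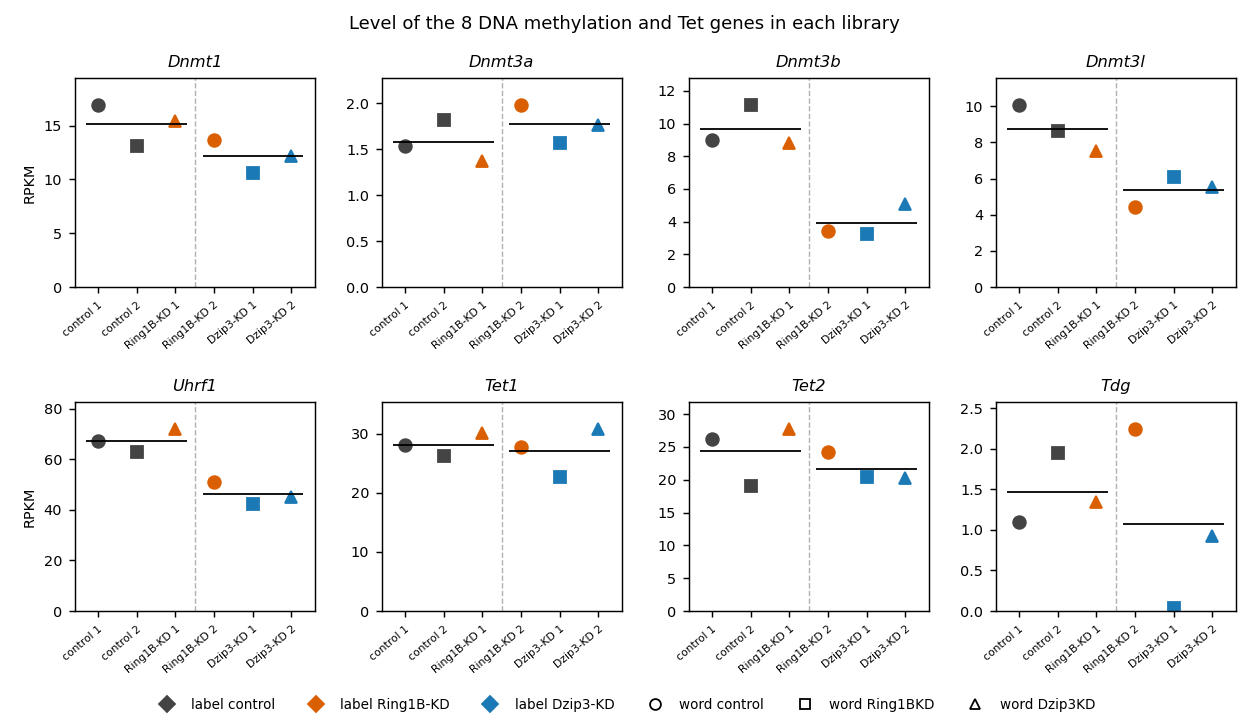
RPKM (linear axis from 0) of each of the 8 genes in the 6 libraries; colour gives the sample label, symbol the word in the list name, the dashed line divides the sets and horizontal bars are set means. *Dnmt3b*, *Dnmt3l* and *Uhrf1* show no overlap across the dashed line, and *Tet1*, *Tet2* and *Dnmt3a* do.

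To determine whether the 8 genes differed between the labelled groups, limma was fitted to log2(RPKM + 1) across all 11538 genes, with Benjamini-Hochberg adjustment. For Ring1B-KD against control, 0 genes passed (0%), while 589 genes (5.1%) had an unadjusted p under 0.05. *Dnmt3b* and *Dnmt3l* were lower in Ring1B-KD 1 and 2 than in either control, 2 of the 8 genes where 18.9% of all genes were. Their log2 differences were -0.74 (SE 0.36) and -0.60 (SE 0.24), each with a limma adjusted p of 0.902. For *Dnmt3b* the difference was smaller than that between the Ring1B-KD libraries themselves, 1.15 on the log2 scale. With the set as a block, the differences of *Dnmt3b* and *Dnmt3l* were -0.16 and -0.27. They had the same values without Ring1B-KD 2, and without Ring1B-KD 1 they were -1.31 and -0.93, none of them called. The other 6 genes had log2 differences from -0.10 for *Uhrf1* to 0.21 for *Tet2*.

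In the comparison of Dzip3-KD with control, 0 genes passed (0%) and 1411 (12.2%) had an unadjusted p under 0.05. The fit with voom weights on recovered reads, an alternative, also called 0 genes in both label comparisons. Without Ring1B-KD 1 or Ring1B-KD 2 the Dzip3-KD count was 25 or 27, with no member among them. *Dnmt3b*, *Uhrf1*, *Dnmt3l*, *Dnmt1* and *Tdg* were lower in Dzip3-KD 1 and 2 than in either control, 5 of the 8 genes where 30.3% of all genes were. The log2 difference of *Dnmt3b* was -1.11 (SE 0.36, limma adjusted p 0.322), from 10.04 ± 1.52 to 4.17 ± 1.30 RPKM (SD, n = 2). That of *Uhrf1* was -0.56 (SE 0.20, limma adjusted p 0.342), from 65.0 ± 2.97 to 43.8 ± 1.77 RPKM (SD, n = 2). *Dnmt3l* and *Tdg* had log2 differences of -0.60 and -0.81 (limma adjusted p 0.393 and 0.401). The *Tdg* value was -0.37 without Dzip3-KD 1, -1.25 without Dzip3-KD 2 and -2.04 with a pseudocount of 0.1. *Tet1* and *Tet2* had differences of -0.04 and -0.13. With 2 libraries against 2, an exact permutation test of a single gene cannot give a two-sided p below 0.333.

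Because control 1 and 2 belonged to the first set and Dzip3-KD 1 and 2 to the second, label and set cannot be told apart here directly. With the set as a block, which rests on the libraries labelled Ring1B-KD, the Dzip3-KD differences of *Dnmt3b* and *Dnmt3l* turned to 0.04 and 0.06 on the log2 scale (limma adjusted p 0.995 and 0.986). That of *Uhrf1* became -0.08 (limma adjusted p 0.978). That of *Tdg* grew to -1.28 (SE 0.59, limma adjusted p 0.829).

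By the word in the list name, the 8 genes were compared within each set. For Ring1BKD against control, 48 of 11538 genes passed (0.416%), all of them higher, and 959 genes (8.31%) had an unadjusted p under 0.05. The count was 3 without the library labelled Dzip3-KD 1, 0 without the set block and 0 without the filter on low values. Of the 8 genes 0 passed, the fit with voom weights called 0 of the 7 with recovered reads, and *Dnmt1* alone had an unadjusted p under 0.05. *Dnmt1*, *Uhrf1*, *Tet1* and *Tet2* were lower in the Ring1BKD library than in the control library of both sets, 4 of the 8 genes where 40.6% of all genes were. For *Dnmt1* the log2 difference was -0.34 in each set and -0.34 in the fit (SE 0.14, limma adjusted p 0.567). By label, this sets control 2 against control 1 in the first set and Dzip3-KD 1 against Ring1B-KD 2 in the second. *Tet2* also differed by -0.34 (SE 0.16, limma adjusted p 0.617), *Tet1* by -0.19 and *Uhrf1* by -0.18. *Dnmt3b* and *Dnmt3l* differed by 0.11 and 0.09, with opposite signs in the sets.

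For the word Dzip3KD against control, 0 genes passed (0%), 752 (6.52%) had an unadjusted p under 0.05, and the fit with voom weights called 1. Without Ring1B-KD 2 the count was 4. *Dnmt1* and *Dnmt3a* were lower in both sets, 2 of the 8 genes where 29.5% of all genes were, and *Tet1* was higher in both, where 22.3% of all genes were. The log2 differences of the 8 genes ran from -0.30 for *Tdg* (SE 0.43) to 0.22 for *Dnmt3b* (SE 0.21), with limma adjusted p-values of 0.869 or more. By label, this sets Dzip3-KD 2 against Ring1B-KD 2 in the second set and Ring1B-KD 1 against control 1 in the first.

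**Figure D3:**
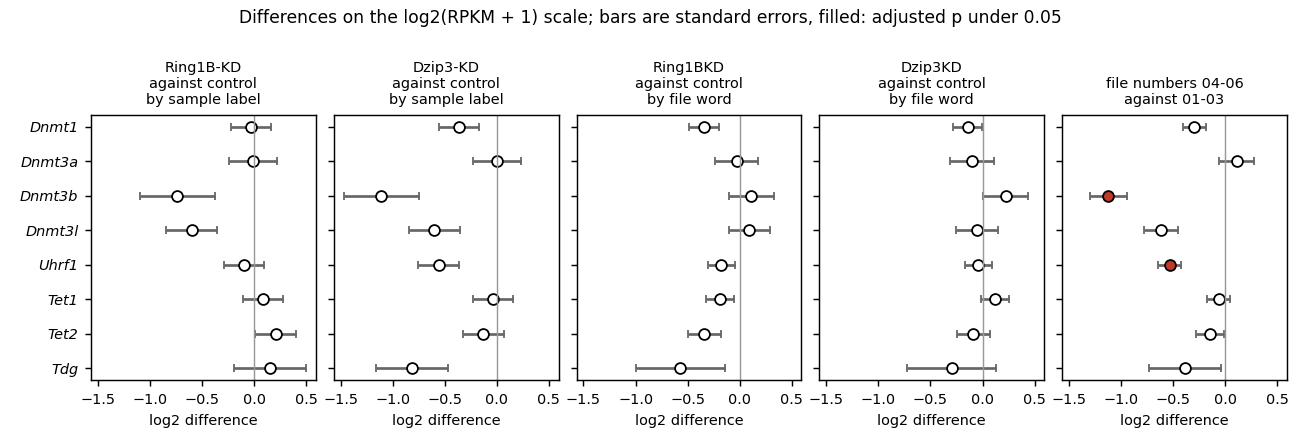
Differences of the 8 genes in the 5 comparisons on the log2(RPKM + 1) scale, with standard errors as bars and filled points where the limma adjusted p was under 0.05. The filled points are *Dnmt3b* at -1.12 and *Uhrf1* at -0.54, both in the comparison of the second set of list numbers (04-06) with the first (01-03).

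The sets themselves were compared in the same fit as the words. The SD of a set spans libraries of different words and labels, which are not replicates of 1 condition. In the second set 879 genes (7.62%) passed, 455 higher (3.94%) and 424 lower (3.67%), and 3056 (26.5%) had an unadjusted p under 0.05. Scaling to a common 75th percentile gave 564 higher and 341 lower, and without any 1 library the count was 351 to 509. *Dnmt3b* and *Uhrf1* were among the lower ones, 2 of the 8 genes. *Dnmt3b* fell from 9.64 ± 1.28 to 3.93 ± 1.02 RPKM (SD, n = 3), a log2 difference of -1.12 (SE 0.18, limma adjusted p 0.0141). *Uhrf1* fell from 67.3 ± 4.51 to 46.2 ± 4.44 RPKM (SD, n = 3), a log2 difference of -0.54 (SE 0.11, limma adjusted p 0.0263). *Dnmt3l* went from 8.75 ± 1.26 to 5.35 ± 0.845 RPKM (SD, n = 3) and narrowly missed the threshold, at -0.62 on the log2 scale (SE 0.16, limma adjusted p 0.0589). The sets did not overlap for these 3 of the 8 genes, where 15.5% of all genes were lower without overlap. At an unadjusted p under 0.05, these 3 and *Dnmt1* were lower, 4 of the 8 genes where 14.4% of all genes were.

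The remaining genes differed less between the sets. *Dnmt1* had a log2 difference of -0.30 (SE 0.11, limma adjusted p 0.147), *Tet2* -0.15, *Tet1* -0.06 and *Dnmt3a* 0.11, beside a median of -0.04 over all genes. The ratio of *Dnmt3b* to *Dnmt3a*, both enzymes of the same reaction, was 5.85, 6.12 and 6.45 in the first set and 1.73, 2.07 and 2.88 in the second. *Tdg* differed by -0.39 with an SE of 0.35.

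The call for *Dnmt3b* held when any 1 library was left out, with limma adjusted p-values of 0.0140 to 0.0428. That for *Uhrf1* was lost without control 1, control 2, Ring1B-KD 2 or Dzip3-KD 1, at 0.0579 to 0.106, and it held without Ring1B-KD 1 or Dzip3-KD 2. Neither passed without a filter on low values (limma adjusted p 0.109 for each), where 0 genes passed in all and 3193 had an unadjusted p under 0.05. *Dnmt3l* passed in the fit with voom weights on recovered reads (limma adjusted p 0.0119).

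Some markers of other cell states differed between the sets. The 7 primed epiblast markers summed to 5.15 to 5.80 RPKM in the first set and 9.88 to 16.8 RPKM in the second. That difference lay in *Otx2*, a homeobox gene of the epiblast leaving the naive state, and not in the list as a whole. *Otx2* was at 0.991, 0.871 and 1.33 RPKM in the first set and 9.72, 5.72 and 12.1 RPKM in the second, a log2 difference of 2.25 (SE 0.18, limma adjusted p 0.00236). The other primed markers tested did not pass and went both ways. Their log2 differences were -0.10 for *Pou3f1*, -0.26 for *Eomes*, 0.17 for *Sall2* and 0.12 for *Krt18*. The 9 naive markers went both ways. In the second set, 2 of them were higher without overlap, where 13.1% of all genes were, and 3 were lower, where 15.5% were. *Tfcp2l1* and *Esrrb*, transcription factors of the naive state, fell by 0.48 and 0.43 on the log2 scale (limma adjusted p 0.0351 and 0.0403). *Klf4* was also lower without overlap, by -0.32 (limma adjusted p 0.0895). *Nanog* and *Dppa5a* had log2 differences of 0.37 and 0.36 (limma adjusted p 0.0715 and 0.101), and *Pou5f1* -0.09.

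*Nes*, a neural marker, rose by 0.88 (limma adjusted p 0.0221), beside 0.40 for *Tubb3* and 0.34 for *Sox1*, which did not pass, and the neural list summed to 19.0 to 27.4 RPKM against 26.1 to 37.9 RPKM. The calls of *Tfcp2l1* and *Esrrb* were lost without control 1, control 2, Ring1B-KD 2 or Dzip3-KD 1, at limma adjusted p-values up to 0.174 and 0.219. That of *Nes* was lost without control 1, Ring1B-KD 1, Ring1B-KD 2 or Dzip3-KD 2, at up to 0.0683. The call of *Otx2* held without any 1 library.

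The primitive endoderm markers, 7 genes, summed to 1.75 to 2.88 RPKM against 1.09 to 1.38 RPKM, with *Dab2* at a log2 difference of -0.68 (limma adjusted p 0.0541). The listed trophectoderm markers summed to 7.53 to 9.18 RPKM against 9.45 to 15.2 RPKM, and nearly all of that was *Tfap2c*, at 6.46 to 7.92 RPKM against 8.18 to 14.3 RPKM (log2 difference 0.49, limma adjusted p 0.0755). *Cdx2*, a defining trophectoderm factor, was at 0.618, 0.408 and 0.276 RPKM in the first set and 0 RPKM in all 3 libraries of the second. It was below the filter and not tested. Its values in control 2 and Ring1B-KD 1 were below the level of 3 reads on 2 kb (0.437 and 0.445 RPKM), so its direction is not settled. *Gata3* differed by 0.10. *Thy1*, the highest fibroblast marker, differed by 0.25. The part of these markers in the differences of *Dnmt3b* and *Uhrf1* was not tested, and in such bulk samples fewer cells of a type and less RNA per cell cannot be told apart.

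The other genes of the pathway were taken from fixed lists. Of 10 other enzymes and cofactors tested with limma, 0 passed in any of the 5 comparisons, the fit with voom weights called 0 of the 9 it covered, and 1 had an unadjusted p under 0.05, *Ctcfl* for the word Ring1BKD. Their median log2 difference between the sets was -0.01. The highest were *Mat2a*, which makes the methyl donor, at 80.6 to 98.3 RPKM, *Hells*, a remodeller needed for methylation, at 21.9 to 25.9 RPKM, and *Usp7*, a deubiquitylase that binds Dnmt1 and Uhrf1, at 21.8 to 26.4 RPKM. Of 7 readers of methylated CpG, 0 passed in any comparison, the fit with voom weights called 0 of the 6 it covered, and 0 had an unadjusted p under 0.05. Of these, *Mbd3* was the highest, at 16.0 to 24.0 RPKM, followed by *Zbtb38* at 5.42 to 7.13 RPKM and *Mbd2* at 3.20 to 4.09 RPKM.

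Of 16 genes of base excision repair and deamination tested, 1 rose and 1 fell between the sets, where 3.94% of all genes rose and 3.67% fell. *Gadd45b*, a stress gene linked to demethylation, rose from 4.71 ± 0.914 to 9.82 ± 2.06 RPKM (SD, n = 3), by a log2 difference of 0.92 (SE 0.19, limma adjusted p 0.0290). *Parp1*, a sensor of DNA breaks, fell from 62.01 ± 4.24 to 44.5 ± 1.81 RPKM (SD, n = 3), by a log2 difference of -0.47 (SE 0.10, limma adjusted p 0.0348). The call of *Gadd45b* was lost without control 1 or Ring1B-KD 2, at limma adjusted p-values up to 0.0916. That of *Parp1* was lost without control 1, control 2, Ring1B-KD 2 or Dzip3-KD 1, at up to 0.176. *Ung*, a glycosylase that removes uracil, was at 15.5 to 23.0 RPKM, with no overlap between the sets (log2 difference -0.33, limma adjusted p 0.102). *Apobec3*, a deaminase that restricts retroviruses, was at 12.4 to 23.4 RPKM and differed by -0.01. *Apex1*, the endonuclease that acts after Tdg, was at 17.8, 9.36 and 16.1 RPKM in the first set and 11.0, 4.68 and 13.3 RPKM in the second (log2 difference -0.59, limma adjusted p 0.0505). By word, it was lowest in the Ring1BKD library of each set, with a log2 difference from the control library of -0.97 (SE 0.18, limma adjusted p 0.0890).

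Of 17 regulators of methylation tested, 1 passed with limma, in the comparison of the sets, where 7.62% of all genes passed. There the fit with voom weights called 1 higher and 2 lower, beside 780 higher and 903 lower among all genes it covered. *Dppa2*, which protects developmental promoters from methylation, fell from 18.8 ± 4.27 to 11.3 ± 1.33 RPKM (SD, n = 3) between the sets, by a log2 difference of -0.67 (SE 0.14, limma adjusted p 0.0299). The call was lost without control 2, Ring1B-KD 1, Dzip3-KD 1 or Dzip3-KD 2, at limma adjusted p-values up to 0.129. Its partner *Dppa4* differed by 0.06. *Nanog*, also on this list, was its highest gene, at 194 to 292 RPKM, and *Cxxc4* was at 0 RPKM in 4 of the 6 libraries. *Zfp57* and *Trim28*, which keep imprints methylated, stood high, at 91.6 to 141 and 114 to 149 RPKM, and their log2 differences between the sets were 0.23 and -0.29 (limma adjusted p 0.203 and 0.115). By word, *Dppa3* was higher in the Ring1BKD library than in the control library of both sets, by a log2 difference of 1.06 (SE 0.21, limma adjusted p 0.114).

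Germline genes whose promoters are methylated in differentiated cells were also listed. Whether their levels here depend on methylation or on the 8 genes was not tested. Of the 12 genes, 9 were above the filter. In the libraries with the word Ring1BKD, 6 of the 9 were higher than the control library in both sets, where 18.5% of all genes were, and the median log2 difference was 0.77 beside -0.08 over all genes. With limma 0 passed at an adjusted p under 0.05, with voom weights 1, and 5 were higher at an unadjusted p under 0.05, where 3.11% of all genes were. *Slc25a31*, counted among the 6 and the 5 and included in the median, was above the filter only through the Ring1BKD libraries. Its place in these counts and in the median is therefore no support. With a log2 difference of 1.11, *Slc25a31* lay above the median and raised it. Its values were 2.07 and 0.725 RPKM in those libraries and 0 to 0.421 RPKM in the others. *Dazl*, an RNA-binding protein of germ cells, was at 23.7 RPKM against 13.5 RPKM in the first set and 26.0 against 14.9 RPKM in the second, a log2 difference of 0.76 (SE 0.14, limma adjusted p 0.0748). It passed after scaling to a common 75th percentile (0.0369), after quantile normalization (0.0446) and with voom weights (0.00561). It did not pass in the other 9 of 12 alternatives, with adjusted p-values up to 0.681, the 6 that leave out 1 library among them. *Mael*, which acts in the piRNA pathway, was at 3.58 against 1.29 RPKM and 3.76 against 0.196 RPKM (log2 difference 1.50, SE 0.27, limma adjusted p 0.0796). The value of 0.196 RPKM, in Ring1B-KD 2, was below the level of 3 reads on 2 kb (0.454 RPKM). The log2 difference of *Mael* was 1.00 in the first set and 1.99 in the second, and ran from 1.03 to 2.56 over the alternatives. *Sohlh2*, a transcription factor of germ cells, was at 8.32 to 11.5 RPKM. By label, the Ring1BKD libraries were control 2 and Dzip3-KD 1, and the same 9 genes had median log2 differences of -0.46 in Ring1B-KD and -0.10 in Dzip3-KD against control, with 0 passing and 2 and 0 at an unadjusted p under 0.05.

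**Figure D4:**
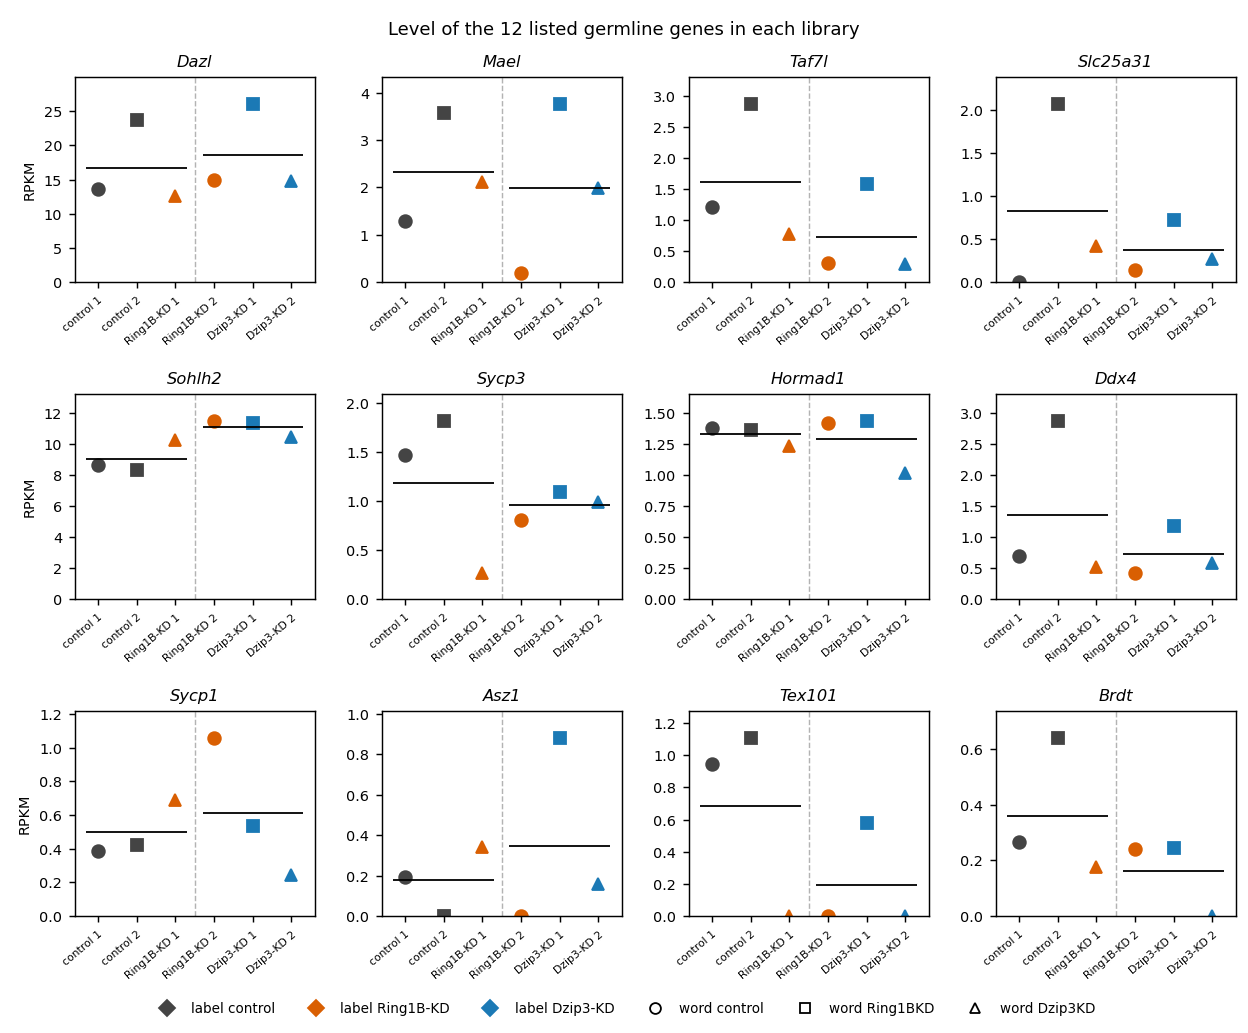
RPKM (linear axis from 0) of the 12 germline genes in the 6 libraries, with colours, symbols, dashed line and bars as for the 8 genes. The square symbols (word Ring1BKD) of *Dazl*, *Mael*, *Taf7l*, *Slc25a31* and *Ddx4* are the highest point of each set, while those of *Sohlh2* and *Hormad1* show no such separation.

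Genes with a pattern most like that of each member were sought by Pearson's r of log2(RPKM + 1) over the 6 libraries, among genes averaging 10 RPKM or more. The values are descriptions, since the 6 points share their sets and about 3066 genes were searched for each. *Smndc1* and *Ube2d3* were most like *Dnmt3b* (r 0.995 for each), and *Hnrnpm* and *Bysl* most like *Uhrf1* (0.998 for each). For *Dnmt1* these were *Triml2* and *Cebpz*, and for *Dnmt3l*, *Spry2* and *Psme2b*. *Tet1* was followed by *Rpl5* and *Cdk2*, *Tet2* by *Gadd45gip1* and *Pcf11*, *Dnmt3a* by *Hyal2* and *Mfsd5*, and *Tdg* by *Ifrd2* and *Supt16*, with r from 0.956 to 0.995 among these.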

How the data were processed

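Per the labels and the methods of the study, total RNA of E14 mES cells was made into stranded mRNA libraries and run on a MiSeq instrument. Alignment was to mm9, with 1 mismatch allowed, and reads unique to a gene were counted. The authors deposited RPKM values, 1 list per library without pooling. The annotation and software versions are not given in the sources used here. RPKM does not correct for a change in RNA composition. The lists paired values with gene symbols, and 0 columns of per-sample values were left unused.

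Groups were taken from the labels (3 groups, 2 libraries each). limma 3.58.1 (R 4.3.3) with a variance trend was fitted to log2(RPKM + 1) for the 11538 genes that averaged 0.5 RPKM or more, with Benjamini-Hochberg adjustment over them and a threshold of 0.05. Differences on this scale understate the change of low genes. Label comparisons used all 6 libraries without covariates, since the study used a model over the 3 groups. Comparisons by word had the set of list numbers as a block, and the sets were compared in the same fit. The members, lists and tests were chosen with earlier results of these data known.

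Whole reads were recovered for 15593 genes (93.6%), where each value was within 0.02 reads of a whole number of reads. An annotated exon length fitted for 5267 of these, and for the rest the shortest fitting length was taken. Of the members, *Tdg* was not recovered, and the lengths fitted for the others were not annotated ones. Their read numbers, which the fit with voom weights used, are therefore estimates. Mapped reads per library followed from these steps, and read numbers cover counting error only. Gene positions come from GENCODE M1 (mm9), and copies were found with minimap2 2.31. The code was tested on simulated reads. Alternatives were the pseudocount (0.1), the filter, scaling to the 75th percentile, quantile normalization, voom weights on recovered reads, blocks for the replicate number or the set, fits without covariates or with 4 libraries, and leaving out each library.

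Named were the 8 genes, the siRNA targets, *Tet3*, *Uhrf2*, *Prdm14* and *Dppa3*. By rule, each pathway or marker list also gave its 3 highest genes, those at 0 in most libraries, those past the threshold and at most 2 with the smallest p. Marker genes that met the rule by level alone are given within their list's sum, and *Klf4* was named after its values were seen. One item of a list is not reported here. The check of replicate numbers gave correlations of deviations from the group means of -0.036, -0.242 and 0.044 for libraries with the same number, so the numbers do not pair the libraries.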

Additional observations from a re-analysis of the deposited data

How the results depend on the processing

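The order of the 8 mean levels was the same under 75th percentile scaling and without any 1 library, except that without Dzip3-KD 1 only 6 of the 8 kept their place (range 6 to 8). For Ring1B-KD against control, 0 genes passed under each alternative. For Dzip3-KD against control it was 24 with only the 4 libraries compared and 0 to 27 with 1 library left out (25 and 27 without Ring1B-KD 1 or 2, else 0). For the word Ring1BKD (48 genes) it was 21 with a pseudocount of 0.1, 0 without a filter, 73 with voom weights, 0 without the set block and 3 to 61 with 1 library left out, 3 being without Dzip3-KD 1. For the word Dzip3KD (0 genes) it was 1 with voom weights and 0 to 4 with 1 library left out, 4 being without Ring1B-KD 2. For the sets (879 genes) it was 0 without a filter, 1683 with voom weights and 351 to 509 with 1 library left out, each library lowering it. The cause was not tested.

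The replicate numbers do not pair the libraries. With the replicate block, 0 genes passed for Ring1B-KD and 1 for Dzip3-KD against control, and with crossed numbers, chosen after seeing the data, 0 for Dzip3-KD. No member was called with or without the block.

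Every reversal below concerns a difference that was not called, on the log2 scale, and its cause was not tested. For Ring1B-KD by label, *Dnmt3a* turned to 0.0037 (75th percentile), *Dnmt1* to 0.0021 (quantile) and, with the set as a block, *Dnmt1* to 0.0489, *Uhrf1* to 0.144 and *Tdg* to -0.0834. With 1 library left out the ranges were -0.204 to 0.140 for *Dnmt1*, -0.0980 to 0.397 for *Tdg*, -0.172 to 0.156 for *Dnmt3a*, -0.0161 to 0.427 for *Tet2*, -0.133 to 0.427 for *Rnf2* and -0.340 to 0.144 for *Uhrf1*. For Dzip3-KD by label, *Dnmt3a* turned to 0.0475 and *Tet1* to 0.0420 (75th percentile), *Tet1* to 0.0716 and *Rnf2* to 0.0168 (quantile), and with the set as a block *Dnmt3b* to 0.0421, *Dnmt3l* to 0.0564, *Tet1* to 0.0781 and *Tet2* to 0.0549. With 1 library left out the ranges were -0.251 to 0.176 for *Tet1*, -0.351 to 0.0922 for *Tet2*, -0.370 to 0.189 for *Rnf2* and -0.0792 to 0.0738 for *Dnmt3a*.

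For the word Ring1BKD, *Dnmt3a* turned to 0.0400 (75th percentile), and with 1 library left out the ranges were -0.177 to 0.402 for *Dnmt3b*, -0.160 to 0.244 for *Dzip3*, -0.210 to 0.151 for *Dnmt3a*, -0.215 to 0.399 for *Dnmt3l* and -1.41 to 0.265 for *Tdg*. For the word Dzip3KD, *Uhrf1* turned to 0.0010 (75th percentile), and the ranges were -0.357 to 0.257 for *Dnmt3l*, -0.153 to 0.0709 for *Uhrf1*, -1.06 to 0.468 for *Tdg*, -0.104 to 0.546 for *Dnmt3b* and -0.304 to 0.128 for *Tet2*. Between the sets, *Rnf2* turned to 0.0207 (75th percentile), 0.0545 (quantile) and 0.0127 (relative to the median of all genes, chosen after seeing the data) and *Tet1* to 0.0155 (quantile), with ranges of -0.0764 to 0.0004 for *Rnf2*, -0.111 to 0.0067 for *Tet1* and -0.896 to 0.171 for *Tdg*. Depth limits most the genes with few reads, *Dnmt3l* (39 to 81), *Dnmt3a* (46 to 65) and, in the second set, *Dnmt3b* (46 to 79). Whole reads were not recovered for *Tdg*.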
